A study of Mus musculus with 12 samples.

Results

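The hepatocytes of a liver lobule differ with their place between the portal tract, where blood enters, and the central vein, where it leaves. The 10 genes described here are central-vein genes that depend on Wnt signalling (Glul, Cyp2e1, Cyp1a2, Axin2, Rhbg, Lect2, Slc1a2, Tbx3 and Lgr5) with Cdh1 as the portal marker. They were taken by name from the arrays, with older names resolved through the transcript accession or synonym, and all 10 were present and above background, among 19340 genes that could be tested. The names matched 17 probes of 41174. Livers came from 12 C57BL/6 mice aged 11 weeks, every one adrenalectomized, the controls included, so that none had adrenal glucocorticoid of its own. Males and females, the females in diestrus 1, received vehicle (phosphate buffered saline) or dexamethasone, a synthetic glucocorticoid, at 1 mg/kg into the peritoneum, and the liver was taken 6 h later. The 4 groups were male vehicle, male dexamethasone, female vehicle and female dexamethasone, with 3 animals in each. The study asked how the liver of each sex responds to a glucocorticoid.

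Wnt ligands and the R-spondin Rspo3 from the endothelium of the central vein stabilise beta-catenin in the hepatocytes next to it, and beta-catenin with TCF factors switches on the central programme. The innermost cells capture ammonia as glutamine through Glul, take up its substrates with Slc1a2 and Rhbg, and carry xenobiotic-metabolising cytochromes such as Cyp2e1 and Cyp1a2. Axin2, Lgr5 and Tbx3 are targets of the pathway, Axin2 and Lgr5 also being part of its machinery, and Lect2 encodes a hepatokine. Hepatocytes next to the portal tract carry more E-cadherin, the product of Cdh1, and more of the urea cycle and gluconeogenic enzymes.

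The promoters of 4 of the 6 members with a RefSeq window are shown: those of Glul and Lect2 because they were called in a test, and those of Cyp2e1 and Cyp1a2 as a pair of central cytochromes whose values had opposite signs. Each sequence is the 250 bases before the start of the gene, 5′ to 3′ on the strand of the gene, from RefSeq on GRCm38.p6. Capitals mark 4 motifs searched on both strands, the TCF/LEF core CTTTGA, the glucocorticoid response element core TGTTCT, the aryl hydrocarbon response core GCGTG and the TATA box TATAAA.
Glul, chr1:153899679-153899928, plus strand: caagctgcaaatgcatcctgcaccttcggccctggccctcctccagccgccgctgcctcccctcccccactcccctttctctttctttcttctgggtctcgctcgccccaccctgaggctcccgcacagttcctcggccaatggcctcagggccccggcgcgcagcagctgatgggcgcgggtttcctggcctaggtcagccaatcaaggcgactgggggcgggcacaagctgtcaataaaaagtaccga
Lect2, chr13:56548539-56548788, minus strand: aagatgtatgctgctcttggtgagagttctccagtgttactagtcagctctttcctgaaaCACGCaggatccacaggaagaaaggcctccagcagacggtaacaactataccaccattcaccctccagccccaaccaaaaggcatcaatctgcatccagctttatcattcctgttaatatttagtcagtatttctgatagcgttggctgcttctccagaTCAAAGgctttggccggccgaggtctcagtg
Cyp2e1, chr7:140763569-140763818, plus strand: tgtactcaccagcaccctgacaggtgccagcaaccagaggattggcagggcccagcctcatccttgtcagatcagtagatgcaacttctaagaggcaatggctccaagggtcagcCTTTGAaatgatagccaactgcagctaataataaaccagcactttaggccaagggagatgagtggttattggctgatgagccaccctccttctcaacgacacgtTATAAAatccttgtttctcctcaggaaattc
Cyp1a2, chr9:57683656-57683905, minus strand: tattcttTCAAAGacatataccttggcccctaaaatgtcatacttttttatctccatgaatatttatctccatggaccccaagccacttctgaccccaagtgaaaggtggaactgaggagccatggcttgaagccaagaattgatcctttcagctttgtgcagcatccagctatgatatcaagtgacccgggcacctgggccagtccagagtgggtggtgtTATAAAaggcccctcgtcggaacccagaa
The Glul window held none of the 4 motifs. Lect2 held the TCF/LEF core and the aryl hydrocarbon core, both on the minus strand of the gene, and no TATA box in these letters. Cyp2e1 and Cyp1a2 each held a TATA box just ahead of the start and 1 TCF/LEF core. RefSeq windows were matched for 6 of the 10 members (Glul, Cyp2e1, Cyp1a2, Axin2, Lect2 and Slc1a2), and 4 of these 6 held the TCF/LEF core, against 16.0% of all 32851 windows of 300 bases. The TATA box was in 2 of the 6, against 13.6% of all windows. The glucocorticoid core was in Axin2 alone of the 6, against 19.0% of all windows, and the aryl hydrocarbon core in Lect2 alone, against 32.4%. No 2 of these matches overlapped, and a match is a description of the letters only. Rhbg, Tbx3, Lgr5 and Cdh1 are named without a sequence.

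Levels below are log2 intensities minus the 75th percentile of the same array, so that 0 is the brightness of the 75th-percentile probe of that array. They compare 1 probe between animals and do not rank genes. The 75th percentile before scaling was 578.2 to 1251 intensity units, 65.1 to 71.8% of probes were well above background on an array, and no member was saturated. Pairs of arrays from the same group had a correlation of 0.984 to 0.994, and pairs from different groups 0.954 to 0.986, with female dexamethasone 3 the least like its own group (mean 0.985). The arrays came on 3 slides of 4, and all 3 male vehicle arrays sat at the first position of their slide, so that this position and that group cannot be told apart. The tissue carried the defining hepatocyte genes, and their summed level, relative to the 75th percentile, was 1470 to 1560 in male vehicle, 1960 to 2230 in male dexamethasone, 1350 to 1550 in female vehicle and 1700 to 1760 in female dexamethasone livers. Of 6 such genes tested, 4 rose with dexamethasone in males and 2 in females, Cps1 and Apoa1 in both sexes. Marker counts here are read against all genes, of which 10.4% rose and 12.1% fell in males. In females 6.79% of all genes rose and 6.88% fell. Kupffer cell and macrophage markers summed to 55.3 to 91.2 in male vehicle and 37.8 to 51.2 in male dexamethasone livers, and to 86.9 to 133.0 and 57.2 to 111.0 in females, with 1 of 8 lower past the threshold in males and none in females. Lymphocyte markers summed to 1.30 to 1.88 and 0.70 to 0.93 in males and 1.48 to 2.98 and 1.06 to 1.35 in females, with 4 of 8 lower in males, and 2 lower and 1 higher in females. Endothelial markers were not restricted to the central vein, whose endothelium secretes the central Wnt ligands. These markers summed to 21.6 to 28.1 and 20.4 to 23.0 in males and 24.7 to 41.6 and 23.3 to 39.1 in females. In males 3 of 8 were lower and 1 higher, and in females 1 was lower and 1 higher. Stellate cell and fibroblast markers summed to 20.9 to 31.7 and 21.6 to 24.3 in males and 24.4 to 30.4 and 26.1 to 30.4 in females, with 3 of 8 lower and 1 higher in males and none called in females. The part of cell composition in the results below was not tested, and in pieces of whole liver fewer cells of a type and less RNA per cell cannot be told apart.

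Dexamethasone changed 2 of the 10 members past the threshold in each sex, and they were the same genes: Lgr5, which fell, and Glul, which rose. Adjusted p-values are from limma with Benjamini-Hochberg adjustment over 19340 genes, with a threshold of 0.05. Among all genes 22.5% passed it in males and 13.7% in females, so that 2 of 10 is near the background. By direction, 10.4% of all genes rose and 12.1% fell in males, and 6.79% rose and 6.88% fell in females. The members' median log2 fold change was −0.36 in males and −0.26 in females, against 0.01 and 0.02 for all genes. The vehicle and dexamethasone animals did not overlap for 5 members in males (Glul, Cyp2e1, Lect2, Lgr5 and Cdh1), where 43.5% of all genes did not overlap, and for 5 in females (Glul, Cyp2e1, Cyp1a2, Lgr5 and Cdh1), where 30.9% did not. Without the animal female dexamethasone 3, 4 members passed in males (Glul, Lect2, Tbx3 and Lgr5) and 3 in females (Glul, Lect2 and Lgr5), where 5026 and 2397 of the 19340 genes passed, against 4359 and 2644 with that animal.

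**Figure D1:**
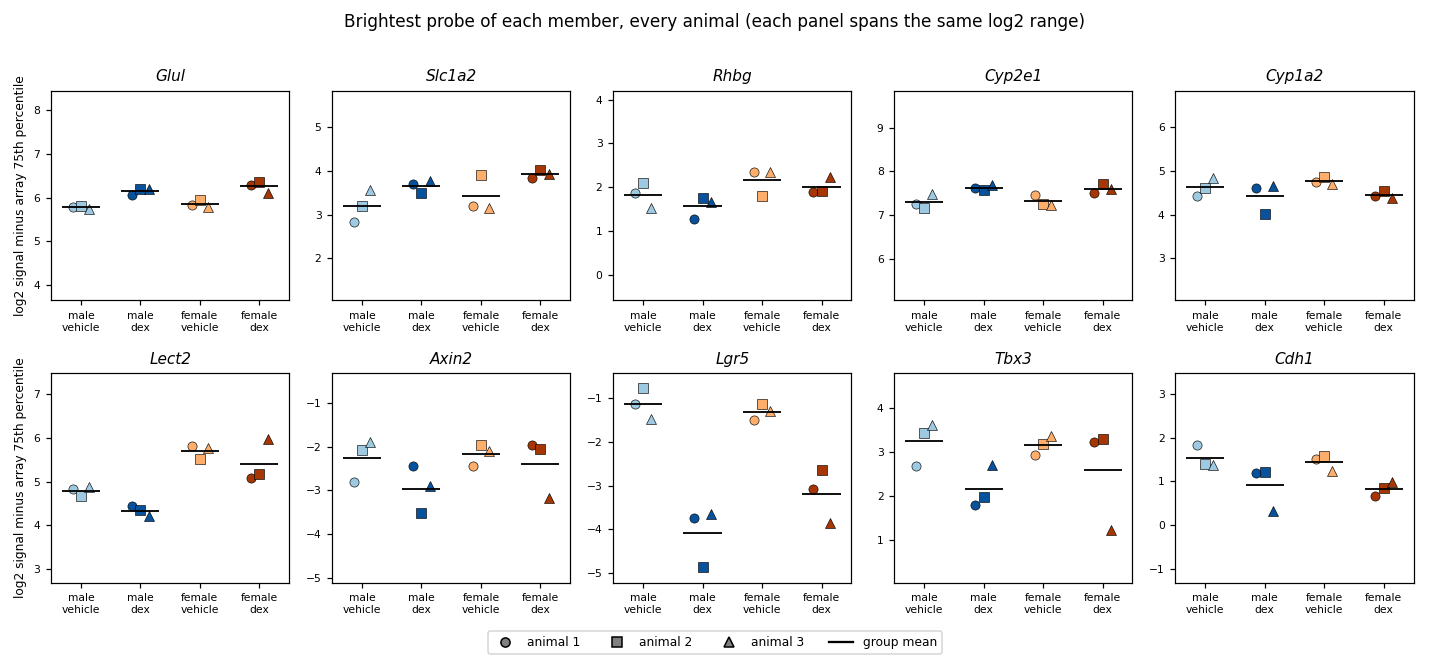
Level of the brightest probe of each of the 10 genes in every animal; the vertical axis is the log2 signal minus the 75th percentile of the array and spans the same range in every panel, and bars are group means of 3 animals. Lgr5 lies between −4.86 and −2.65 in the 6 dexamethasone animals, below all 6 vehicle animals, and the triangle of female dexamethasone 3 is apart in Tbx3, Lect2 and Axin2.

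Lgr5, a receptor for R-spondins that raises the Wnt response of a cell, had the largest change of the 10. In male vehicle livers its levels were −1.14, −0.77 and −1.48, and in male dexamethasone livers −3.74, −4.86 and −3.64. In females they were −1.49, −1.13 and −1.30 with vehicle and −3.07, −2.65 and −3.86 with dexamethasone. Every dexamethasone animal was below every vehicle animal of either sex. The log2 fold change of Lgr5 was −2.95 ± 0.36 in males, a level 7.75-fold lower (SE, n = 3 a group, limma adjusted p = 0.00061), and −1.89 ± 0.36 in females, 3.70-fold lower (adjusted p = 0.00849). The fall was present within each slide that held both treatments, with differences of −3.73 and −2.92 in males and −1.51 and −1.98 in females. The probe was well above background on all 12 arrays. It lies on mm7 at chr10:114958025-114958084, minus strand. A normexp background correction, which moved the median of all genes up by 0.25 in males and 0.22 in females and left 908 and 536 genes called, ended both calls (log2 fold change −1.28 with adjusted p = 0.16, and −0.80 with adjusted p = 0.438). With the local background capped at the 99th percentile of each array the same correction gave −1.80 (adjusted p = 0.000125) and −1.39 (adjusted p = 0.000943). A second Lgr5 probe, on another transcript, was below background on all 12 arrays and gave no measurement.

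Axin2, the scaffold of the beta-catenin destruction complex and a feedback target of the pathway, was lower in the mean with dexamethasone but did not pass the test. Its levels were −2.80, −2.07 and −1.89 in male vehicle and −2.45, −3.53 and −2.90 in male dexamethasone livers. In females they were −2.44, −1.97 and −2.11 with vehicle and −1.97, −2.05 and −3.19 with dexamethasone. The groups overlapped in both sexes, and in females only animal 3 of the dexamethasone group was below the vehicle animals. The log2 fold change was −0.71 ± 0.37 in males (95% interval −1.53 to 0.12, adjusted p = 0.207) and −0.23 ± 0.37 in females (−1.06 to 0.59, adjusted p = 0.747). Without female dexamethasone 3 the female value was 0.16 (adjusted p = 0.818).

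Tbx3, a T-box transcription factor of the central zone, showed the widest spread of the 10 within groups. Male vehicle livers gave 2.68, 3.45 and 3.62, and male dexamethasone livers 1.80, 1.97 and 2.72. Female vehicle livers gave 2.94, 3.18 and 3.36, and female dexamethasone livers 3.24, 3.29 and 1.22. Female dexamethasone 1 and 2 lay within the vehicle range, and female dexamethasone 3 was the lowest of all 12. The log2 fold change was −1.09 ± 0.50 in males (adjusted p = 0.149) and −0.58 ± 0.50 in females (adjusted p = 0.505). Since all groups share 1 estimate of the spread, leaving out female dexamethasone 3 brought the male value, −1.09, past the threshold (adjusted p = 0.0218) and turned the female value to 0.10 (adjusted p = 0.882). The second Tbx3 probe, also lowest in female dexamethasone 3, gave −0.11 ± 0.54 in males, where the brighter probe gave −1.09 ± 0.50, and the difference between the probes was not tested.

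Glul, glutamine synthetase, was slightly higher with dexamethasone in both sexes. Its levels were 5.79, 5.82 and 5.73 in male vehicle and 6.07, 6.19 and 6.20 in male dexamethasone livers. In females they were 5.83, 5.95 and 5.79 with vehicle and 6.30, 6.37 and 6.12 with dexamethasone. Every dexamethasone animal was above every vehicle animal. Glul rose by 0.37 ± 0.11 in males, 1.29-fold (SE, n = 3 a group, limma adjusted p = 0.0365), and by 0.41 ± 0.11 in females, 1.33-fold (adjusted p = 0.0359). Its second probe rose by 0.82 ± 0.23 in males (adjusted p = 0.0267 over all probes) and 0.89 ± 0.23 in females (adjusted p = 0.0287). The brighter probe lies on mm7 at chr1:153870358-153870417 and the second at chr1:153869393-153869452, both on the plus strand. These calls were close to the threshold. With slide as a block the values were 0.36 (adjusted p = 0.0866) and 0.42 (adjusted p = 0.0703), while within slides the rise was 0.40 and 0.31 in males and 0.42 and 0.38 in females. Leaving out any 1 of the 6 male animals, or female dexamethasone 1, ended the male call, with values from 0.35 to 0.41. The female call ended without any 1 of the 3 male vehicle animals, female vehicle 1 or 3, or female dexamethasone 1 or 2, and over all such fits the female value was 0.35 to 0.48. Quantile normalization gave 0.25 (adjusted p = 0.17) in males and 0.33 (adjusted p = 0.101) in females, and normexp 0.19 (adjusted p = 0.611) and 0.15 (adjusted p = 0.692).

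Slc1a2, the glutamate transporter GLT-1, was measured by 3 probes on the strand of the gene, and each had a higher mean with dexamethasone in both sexes. The brightest, named in the array file by an older clone name, gave 2.84, 3.19 and 3.55 in male vehicle and 3.71, 3.49 and 3.76 in male dexamethasone livers. In females it gave 3.19, 3.90 and 3.16 with vehicle and 3.83, 4.03 and 3.92 with dexamethasone. The groups overlapped in both sexes. For this probe the log2 fold change was 0.46 ± 0.22 in males (adjusted p = 0.171) and 0.51 ± 0.22 in females (adjusted p = 0.164). Without female vehicle 2 the female value was 0.75 and passed (adjusted p = 0.0374). Probes 2 and 3 gave 0.27 and 0.46 in males and 0.33 and 0.61 in females, and none of these passed. Probe 4, on mm7 at chr2:102595131-102595190, lies on the minus strand, while the other 3 lie on the plus strand, so that it reads the strand opposite to the gene. It was well above background on 2 of 3 male vehicle and 1 of 3 female vehicle arrays and on all dexamethasone arrays, and is not used as a measure of Slc1a2.

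Rhbg, an ammonia transporter of the same cells, gave 1.86, 2.08 and 1.53 in male vehicle, 1.26, 1.76 and 1.66 in male dexamethasone, 2.35, 1.81 and 2.35 in female vehicle and 1.89, 1.90 and 2.24 in female dexamethasone livers. The treatments overlapped in both sexes. Rhbg had a log2 fold change of −0.26 ± 0.21 in males (adjusted p = 0.417) and −0.16 ± 0.21 in females (adjusted p = 0.688).

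The central cytochromes differed in the sign of their values, and neither passed. Cyp2e1, which oxidises ethanol and acetone, gave 7.25, 7.17 and 7.47 in male vehicle and 7.62, 7.56 and 7.68 in male dexamethasone livers. In females it gave 7.45, 7.25 and 7.24 with vehicle and 7.49, 7.72 and 7.59 with dexamethasone. All dexamethasone animals were above all vehicle animals, by 0.32 ± 0.12 in males (adjusted p = 0.0872) and 0.29 ± 0.12 in females (adjusted p = 0.152). Cyp1a2, which metabolises caffeine and is a target of the aryl hydrocarbon receptor, gave 4.42, 4.62 and 4.84 in male vehicle and 4.60, 4.01 and 4.64 in male dexamethasone livers. In females it gave 4.75, 4.86 and 4.70 with vehicle and 4.42, 4.54 and 4.38 with dexamethasone. The female groups did not overlap and the male groups did. The Cyp1a2 log2 fold change was −0.21 ± 0.18 in males (95% interval −0.60 to 0.19, adjusted p = 0.455) and −0.32 ± 0.18 in females (−0.72 to 0.07, adjusted p = 0.269). Its second probe gave −0.29 ± 0.23 and −0.32 ± 0.23. That probe is shown because its 60 bases map to a span of 650 bases on mm7, chr9:57708722-57709371, minus strand, and so cross an intron and read spliced RNA.
Cyp1a2 probe 2: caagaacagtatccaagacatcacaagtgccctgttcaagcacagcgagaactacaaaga
The difference between Cyp2e1 and Cyp1a2 was not tested.

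Lect2, a hepatokine that the Wnt pathway drives, gave 4.84, 4.66 and 4.87 in male vehicle and 4.44, 4.35 and 4.21 in male dexamethasone livers. In females it gave 5.80, 5.52 and 5.76 with vehicle and 5.08, 5.18 and 5.97 with dexamethasone. The male groups did not overlap, while female dexamethasone 3 was the highest of all 12 animals. The log2 fold change with dexamethasone was −0.46 ± 0.21 in males (adjusted p = 0.149) and −0.29 ± 0.21 in females (adjusted p = 0.415). Without female dexamethasone 3 both passed, with −0.46 (adjusted p = 0.0224) and −0.57 (adjusted p = 0.0272). With quantile normalization the male value passed too (−0.58, adjusted p = 0.0403).

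Cdh1, E-cadherin, the portal marker, was lower with dexamethasone in both sexes without passing the test. Male vehicle livers gave 1.84, 1.41 and 1.36, and male dexamethasone livers 1.18, 1.21 and 0.33. Female vehicle livers gave 1.52, 1.57 and 1.23, and female dexamethasone livers 0.66, 0.84 and 0.99. The groups did not overlap in either sex. Cdh1 had a log2 fold change of −0.63 ± 0.24 in males (adjusted p = 0.0833) and −0.61 ± 0.24 in females (adjusted p = 0.12). Without male dexamethasone 3 the male value was −0.34 (adjusted p = 0.25), and the female value, −0.61, passed (adjusted p = 0.039). Cholangiocytes also carry E-cadherin, and their marker genes summed to 13.3 to 36.5 in male vehicle, 7.78 to 47.6 in male dexamethasone, 15.6 to 20.0 in female vehicle and 8.86 to 18.0 in female dexamethasone livers. Their part in the Cdh1 values was not tested.

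**Figure D2:**
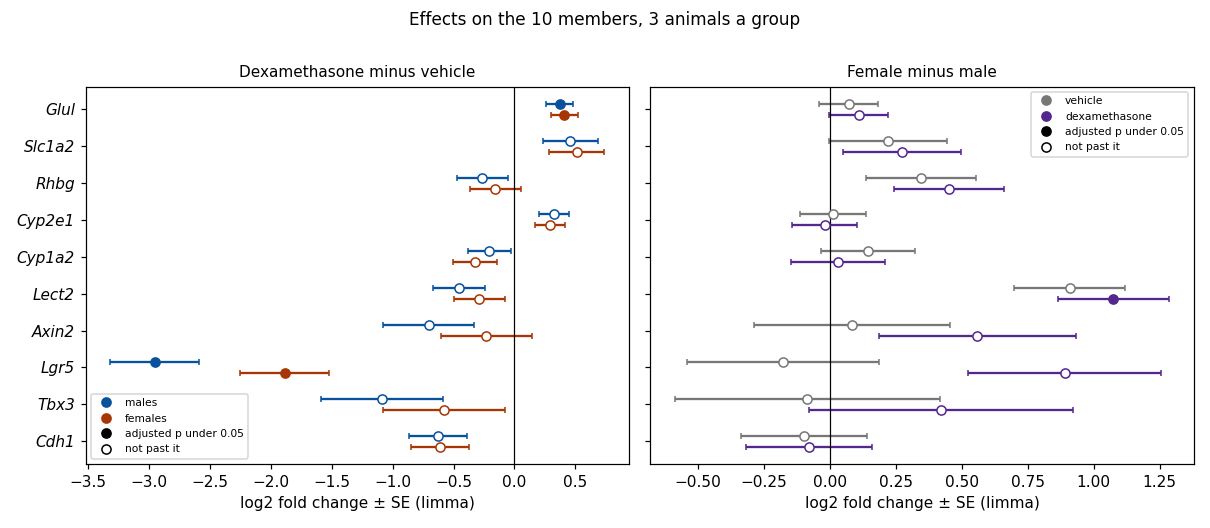
Log2 fold change with its standard error for the 10 genes, dexamethasone minus vehicle in each sex on the left and female minus male under each treatment on the right, 3 animals a group; filled points passed an adjusted p of 0.05 in limma. Lgr5 and Glul are filled on the left in both sexes, and Lect2 alone is filled on the right, with dexamethasone.

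**Figure D3:**
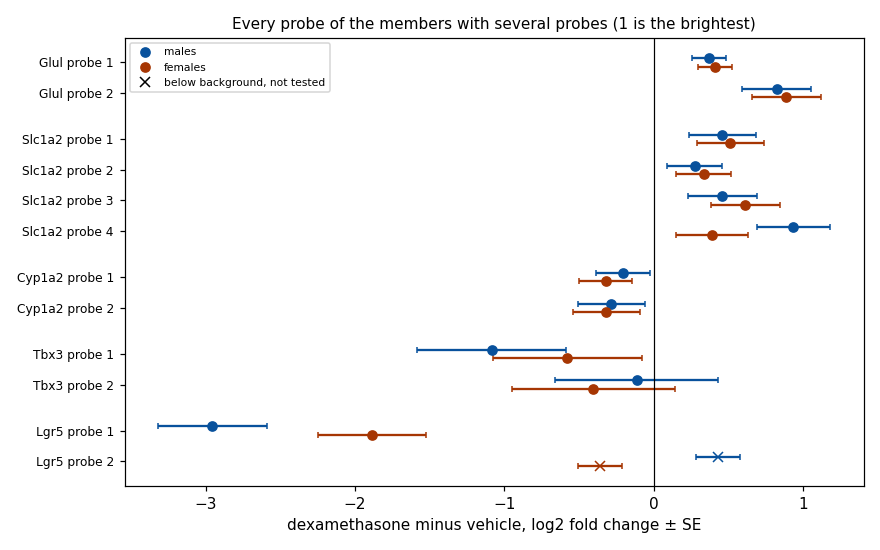
Dexamethasone minus vehicle, log2 fold change with its standard error, for every probe of the 5 genes with several probes, in males and females; crosses mark the Lgr5 probe that was below background and was not tested. The 2 Glul probes and the 3 Slc1a2 probes of the gene's own strand lie above 0 in both sexes, and the 2 Tbx3 probes are at −1.09 and −0.11 in males; Slc1a2 probe 4 reads the opposite strand and was near background in part of the vehicle arrays.

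The response of females was set against that of males by the difference of the log2 fold changes, and no member passed in limma, nor had any an unadjusted p under 0.05 (0 of 10). Of all genes 0.00517% passed the adjusted threshold, which is 1 gene. That count was 32 without female dexamethasone 3 and 2278 with no filter on dim probes, with no member among them in either. The largest difference was that of Lgr5, whose fall was smaller in females by 1.07 ± 0.52 (95% interval −0.07 to 2.21, limma adjusted p = 0.971). On the only slide that held all 4 groups, that difference was 2.21. Tbx3 (0.51 ± 0.71) and Axin2 (0.47 ± 0.53) followed, both with adjusted p = 1.00. For Glul the difference was 0.04 ± 0.16 (95% interval −0.31 to 0.39). With 3 animals a group the interval for Lgr5 holds both no difference and one larger than the difference seen.

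Females and males were then compared under each treatment. Under vehicle none of the 10 passed the adjusted threshold in limma, against 1.97% of all genes (0.657% higher and 1.31% lower in females). Only 1 member, Lect2, had an unadjusted limma p under 0.05, and the share of all genes at that unadjusted level was not counted. Lect2 came closest, higher in females by 0.91 ± 0.21, 1.88-fold (limma adjusted p = 0.0581), and it was the 1 member whose sexes did not overlap, where 20.0% of all genes did not. With dexamethasone Lect2 alone passed, against 5.81% of all genes (3.27% higher and 2.53% lower in females), and was higher in females by 1.08 ± 0.21, 2.11-fold (adjusted p = 0.0161). All 6 females had more Lect2 than all 6 males. The Lect2 probe lies on mm7 at chr13:55634291-55634350, minus strand. Within slides the vehicle difference was 0.69, 0.94 and 1.10, and the dexamethasone difference, on the 1 slide with both sexes, 0.83. With slide as a block the dexamethasone call ended (0.95, adjusted p = 0.145), and it ended without male dexamethasone 3 (1.01, adjusted p = 0.0509). Without female dexamethasone 3 the vehicle difference passed (0.91, adjusted p = 0.0049) and the dexamethasone difference was 0.80 (adjusted p = 0.011).

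With dexamethasone 3 members had sexes that did not overlap (Rhbg, Lect2 and Slc1a2, each higher in females), where 26.5% of all genes did not overlap. The dexamethasone males were on slides 1 and 3 and the females on slides 1 and 2. Beyond slide 1 the dexamethasone arrays alone cannot tell sex from slide. The vehicle arrays had both sexes on every slide, and the fit with slide as a block draws on them. On slide 1 the sexes differed by 0.15 for Rhbg, 0.83 for Lect2 and 0.54 for Slc1a2. With slide as a block 1.26% of all genes were called in this comparison, against 5.81% without it. Rhbg differed by 0.45 ± 0.21 (adjusted p = 0.237) and the brightest Slc1a2 probe by 0.27 ± 0.22 (adjusted p = 0.50). Slc1a2 probes 2 and 3 differed more, by 0.58 ± 0.19 and 0.49 ± 0.23 (adjusted p = 0.101 and 0.252 over all probes). Under vehicle the 3 probes were higher in females by 0.22, 0.52 and 0.34, and none passed. Lgr5 was 0.89 ± 0.36 higher in females with dexamethasone (adjusted p = 0.187) and differed by −0.18 ± 0.36 under vehicle (adjusted p = 0.881). The brightest probes of Glul, Cyp2e1, Cyp1a2 and Cdh1 had sex differences between −0.10 and 0.15 under either treatment, each with an adjusted p above the threshold. The second Glul probe had the opposite sign, with −0.33 under vehicle and −0.27 with dexamethasone. The second Cyp1a2 probe gave 0.23 and 0.19, and none of these passed. The members' median sex difference was 0.08 under vehicle and 0.35 with dexamethasone, against −0.05 for all genes in both.

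Other genes of the Wnt pathway were followed as fixed lists, whose counts are read against the 22.5% of all genes called in males and 13.7% in females. Of 47 calls named from these and the lists further on, 15 were kept with normexp, 29 were lost and 3 changed sign. With slide as a block 11 were lost, and with 1 animal left out 3 to 8. Among 12 feedback and target genes beside the members, 7 fell and none rose in males, with a median log2 fold change of −1.01, and 5 fell and 1 rose in females, with a median of −0.73. Tnfrsf19, a receptor and Wnt target, fell in both sexes, with log2 fold changes of −3.03 ± 0.26 in males and −3.17 ± 0.26 in females (adjusted p = 0.000108 and 0.000142). Its levels were −0.12, −0.71 and −0.44 in male vehicle, −3.20, −3.50 and −3.65 in male dexamethasone, 0.31, −0.74 and 0.03 in female vehicle and −3.42, −3.40 and −3.10 in female dexamethasone livers, so that neither sex overlapped. Both Tnfrsf19 calls ended with normexp, at −1.78 (adjusted p = 0.0747) and −2.09 (adjusted p = 0.0548). Rnf43, a ligase that removes Wnt receptors and whose action Lgr5 with R-spondin blocks, fell in males (−1.75 ± 0.30, adjusted p = 0.00263) and in females (−1.04 ± 0.30, adjusted p = 0.0425). Its close relative Znrf3 had values of −0.21 and 0.27 that did not pass (adjusted p = 0.426 and 0.333). Notum, which inactivates Wnt ligands, fell (−0.78 ± 0.12 in males and −0.61 ± 0.12 in females, adjusted p = 0.00206 and 0.0109), as did the adhesion receptor Cd44 (−2.07 ± 0.27 and −1.50 ± 0.27, adjusted p = 0.000765 and 0.00628). When its probes were averaged Notum had −1.34 in males and lost its female call (−0.49, adjusted p = 0.352). Apcdd1, a membrane inhibitor of Wnt, was the 1 gene of the list that rose, in females (1.47, adjusted p = 0.0109). The feedback inhibitor genes Nkd1 and Nkd2 and the transcription factor gene Sp5 fell in males. The cyclin gene Ccnd1 fell in females (−1.19, adjusted p = 0.0429), had 0.15 in males, and was higher in females than males by 2.80 ± 0.34 under vehicle (adjusted p = 0.00174) and by 1.46 ± 0.34 with dexamethasone (adjusted p = 0.0334), the latter a call that ended under 8 of 23 alternatives. Leaving out 1 animal left 5 to 8 genes of the list called in males and 4 to 6 in females, and the other alternatives 5 to 8 and 0 to 7, with 3 in females when probes were averaged and 0 with normexp. The female Rnf43 call ended with slide as a block (−0.96, adjusted p = 0.111) and without any 1 of 8 animals, down to −0.66 without female dexamethasone 3.

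**Figure D4:**
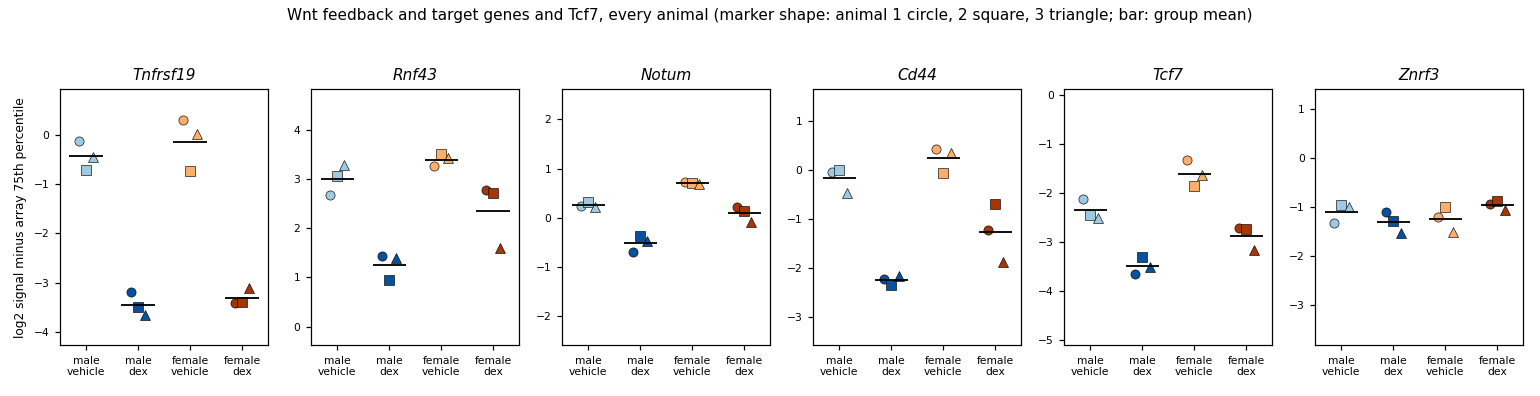
Level of 5 Wnt feedback and target genes and of Tcf7 in every animal, as log2 signal minus the 75th percentile of the array, the same range in every panel, with bars for group means of 3 animals. Dexamethasone and vehicle animals of a sex do not overlap for Tnfrsf19, Rnf43, Notum, Cd44 and Tcf7, and do for Znrf3. Of all genes 43.5% in males and 30.9% in females did not overlap. Tnfrsf19, Notum, Cd44 and Tcf7 were named for their small adjusted p, so that their not overlapping is no separate support.

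Of 22 transducers, 3 fell and none rose in males, and 2 fell and 1 rose in females, with medians of −0.07 and −0.04. Tcf7, a TCF factor, fell in males (−1.13 ± 0.19, adjusted p = 0.00235) and in females (−1.26 ± 0.19, adjusted p = 0.00255), and so did the corepressor gene Tle2 (−0.93 ± 0.14 and −0.64 ± 0.14, adjusted p = 0.00133 and 0.0122). Both Tcf7 calls ended with normexp, at −0.10 (adjusted p = 0.872) and −0.51 (adjusted p = 0.438), and without background subtraction the male value was −0.68. Amer1 fell in males (−0.63, adjusted p = 0.0404) and Gsk3b rose in females (0.55, adjusted p = 0.036), both calls that ended when single animals were left out. Ctnnb1, which encodes beta-catenin, had −0.33 and −0.40 (adjusted p = 0.116 and 0.0823), and Tcf7l2, the main TCF factor of the liver, had −0.38 and −0.04 (adjusted p = 0.0862 and 0.891). Of 11 ligand and secretion genes tested, 1 rose and 3 fell in males and 1 rose and 1 fell in females. Porcn, which acylates Wnt ligands, rose by 1.90 ± 0.25 and 1.35 ± 0.25 (adjusted p = 0.000786 and 0.00706). The male falls were Wnt4 (−1.33, adjusted p = 0.00244), Wnt9a (−1.84, adjusted p = 0.017) and Wls, and the female fall was Wnt5b (−1.43, adjusted p = 0.00371). The central-vein ligands did not pass: Wnt2 had −0.81 and 0.00 and Wnt9b −0.04 and 0.44. The male groups did not overlap for Wnt2, and without female dexamethasone 3 its male value, −0.81, passed (adjusted p = 0.0444). Rspo3 had 0.12 in females (adjusted p = 0.684). It was not well above background in any male dexamethasone liver. With dexamethasone and the main background treatment it was at least 1.40-fold higher in females (limma adjusted p = 0.0222, for the fit to the dim values). That bound takes the lowest signal of a probe well above background on each array in place of the dim value. The Rspo3 and Wnt4 values are dim, and normexp turned both, to −0.13 for the Rspo3 sex difference and 0.10 for Wnt4 in males, and ended the Wnt9a call (−0.37, adjusted p = 0.577). Capped normexp and no background subtraction also turned the Rspo3 sex difference, down to −0.18. Its call ended under 6 further alternatives of 22, and the bound does not hold under every background treatment.

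Among 11 receptors and coreceptors, 3 rose and 2 fell in males and 1 rose in females. Lrp6 rose by 1.11 ± 0.20 in males (adjusted p = 0.00328) and had 0.60 in females (adjusted p = 0.0688). Lrp5 (0.55) and Fzd9 (0.87) rose in males, Fzd4 (−1.16, adjusted p = 0.00187) and Fzd1 fell, and Fzd9 rose in females (0.87, adjusted p = 0.0482), a call that ended under 18 of 23 alternatives. The male count was 2 to 6 with 1 animal left out, 2 without male vehicle 2 or 3, and the female count 0 to 1. Of 8 secreted inhibitors tested, Dkk4 passed in males and Dkk3 in females (0.76, adjusted p = 0.0369), and the Dkk3 call ended under 12 of 23 alternatives, slide as a block among them (adjusted p = 0.0852). Dkk4 was not well above background in the other 3 groups and met the filter only through male dexamethasone, where it is high, so that its being called is no support for a change. With the main background treatment Dkk4 was at least 2.82-fold higher with dexamethasone in males, and at least 3.39-fold higher in males than females with dexamethasone. The limma adjusted p-values (0.0058 and 0.00207) belong to the fit to the dim values, not to these bounds. Over the other settings the log2 values were as small as 0.69 in males and −0.51 between the sexes. Their adjusted p reached 0.393 and 0.998, so that neither bound holds under every setting. In the main fit the effect of dexamethasone on no gene of these Wnt lists differed between the sexes past the threshold. With 1 animal left out the count stayed at 0 in each list. Under the other settings it reached 1 for ligands and their secretion and 1 for secreted inhibitors.

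The remaining zonation genes were counted in the same way. Of 19 other central genes tested, 2 rose and 2 fell in males and 1 rose and 1 fell in females, near the shares of all genes, with medians of −0.09 and 0.05. The nuclear receptor gene Nr1i3 fell in both sexes (−1.30 ± 0.18 and −0.82 ± 0.18, adjusted p = 0.000992 and 0.0139), and the dicarboxylate transporter gene Slc13a3 fell in males (−0.87, adjusted p = 0.0176). Cyp1a1, like Cyp1a2 a target of the aryl hydrocarbon receptor, rose in males (1.35, adjusted p = 0.0189) and had 1.12 in females (adjusted p = 0.0578), while the receptor gene Ahr itself had 0.20 and 0.10. Lhpp rose in both sexes (0.57 and 0.65, adjusted p = 0.0419 and 0.0369), and the female call ended under 12 of 23 alternatives (adjusted p up to 0.438). With 1 animal left out the counts were 2 to 5 in males, 2 without male dexamethasone 2 or any 1 male vehicle animal, and 0 to 3 in females, 0 without female vehicle 1. With dexamethasone 5 of these genes were higher and 1 lower in females, where 3.27% of all genes were higher and 2.53% lower. Slc13a3 (1.21), Nr1i3 (0.90) and Cyp2c29 (0.78) were among the higher ones. None of the 6 passed with slide as a block, where 1.26% of all genes did.

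Of 16 portal genes beside Cdh1, 4 rose and 1 fell in males and 5 rose in females, with medians of 0.27 and 0.32. The shares of all genes were 10.4% higher and 12.1% lower in males, and 6.79% higher and 6.88% lower in females. Sds, serine dehydratase, rose by 2.38 ± 0.40 and 2.33 ± 0.40 (adjusted p = 0.00237 and 0.00489), and the urea cycle genes Cps1 (1.07 and 0.93) and Ass1 (0.89 and 0.78) rose in both sexes (adjusted p between 0.00206 and 0.0117). Asl rose in both sexes and Arg1 in females. Ctsc fell in males (−0.93, adjusted p = 0.0335). The classical portal cytochrome gene Cyp2f2 had 0.20 and 0.13 and the portal glutaminase gene Gls2 0.01 and 0.00, and neither passed. The male count was 3 without male vehicle 1, the female count 3 without female vehicle 1 or 3 or female dexamethasone 3, and both were 1 with normexp.

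Around Glul, of 14 genes of glutamine, glutamate and ammonia handling tested, 3 rose and 4 fell in males and 1 rose and 2 fell in females. The shares of all genes were 10.4% higher and 12.1% lower in males, and 6.79% higher and 6.88% lower in females. Got1, the cytosolic aspartate aminotransferase, rose by 1.93 ± 0.39 and 1.84 ± 0.39 (adjusted p = 0.00597 and 0.012). Slc38a3, a glutamine transporter of the central zone, fell in females (−0.91, adjusted p = 0.0126) and had −0.53 in males (adjusted p = 0.0752). The glutamate transporter gene Slc1a3, a relative of Slc1a2, fell in males (−1.01, adjusted p = 0.0186). That call was near background and ended, at −0.02, without background subtraction. The male count was 2 without male vehicle 1 and the female count 5 without female dexamethasone 3, and with normexp they were 1 and 0.

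**Figure D5:**
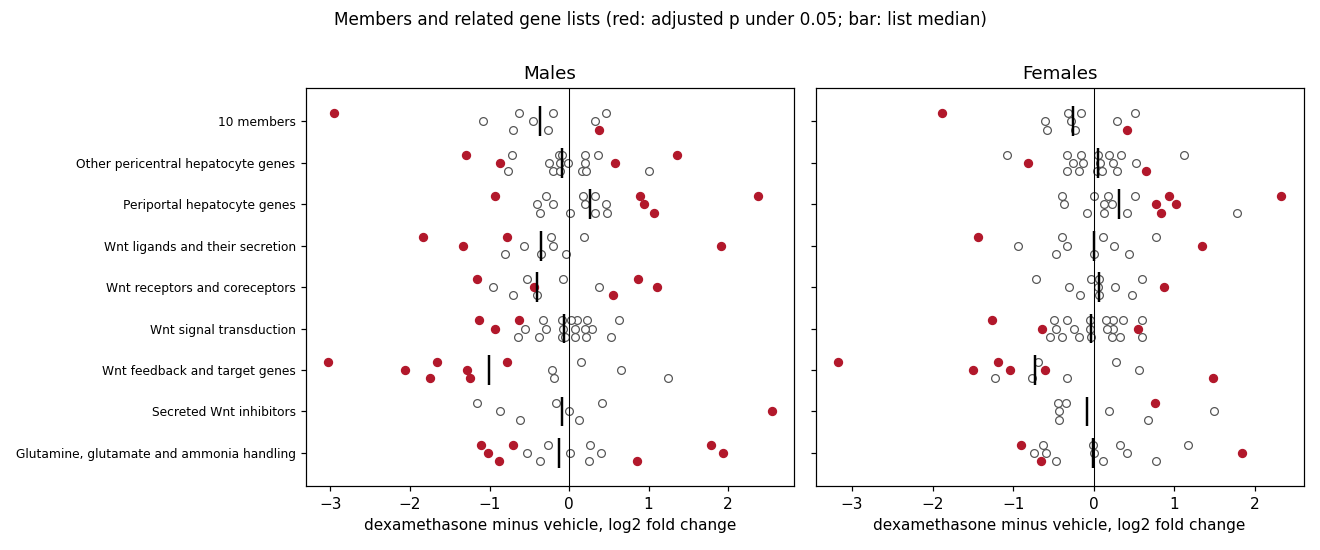
Log2 fold change with dexamethasone of the 10 genes and of 8 related lists in males and females; each point is a gene, red points passed an adjusted p of 0.05 in limma, and the bar is the list's median. The Wnt feedback and target genes have the lowest medians, −1.01 in males and −0.73 in females, and the portal genes the highest, 0.27 and 0.32.

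Genes with the pattern most like a member over the 12 arrays were named as a description. They were Fgfr2 (Pearson r = 0.984) and Zfpm1 (0.982) for Lgr5, Chka (0.965) and Srsf10 (0.963) for Glul, Tbc1d9 (0.965) and Mpc2 (0.96) for Lect2, and Sowahb (0.958) and Inhbe (0.94) for Tbx3. For Axin2 they were Bhlhe40 (0.938) and Arid1a (0.916), for Slc1a2 Psmc2 (0.954) and Dnaja1 (0.946), and for Rhbg Col4a5 (0.945) and Ccl5 (0.906). For Cyp2e1 they were Rbak (0.937) and Rbm22 (0.922), for Cyp1a2 Zfp120 (0.919) and Olfr114 (0.905), and for Cdh1 Cyb5r1 (0.937) and Disp1 (0.926). These are the highest of 19340 values each, and the arrays share the group differences. Among the members, after the 4 group means were taken out, Axin2 followed Tbx3 (r = 0.75), Cyp1a2 (0.71) and Lgr5 (0.70) over the 12 arrays, and Lect2 ran against Tbx3 (−0.87) and Glul (−0.87). Without female dexamethasone 3 these were 0.46, 0.84, 0.52, −0.45 and −0.76. The values of Axin2 and Lect2 with Tbx3 therefore rest in large part on that animal. Tbx3 with Cdh1 went the other way, from −0.65 over the 12 arrays to −0.90 without that animal.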

How the data were processed

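Liver RNA (500 ng an animal) was turned into Cy3-labelled cRNA and read on single-channel Agilent mouse arrays, each array holding 1 animal, per the labels' protocols. The deposited files hold spot intensities that the authors quantified with Agilent Feature Extraction 9.5, per the file headers, as a processed signal already background-subtracted. The deposited series table held the same intensities for all 45018 spots. From these, 1639 control spots and outlier-flagged spots were left out, log2 was taken, and the 75th percentile of each array was subtracted. Deposited intensities have no read depth, and the number of arrays limits the precision. The 28842 probes tested had to be well above background in every animal (3 of 3) of some group. The brightest probe stood for a gene, and symbols came from the files and a RefSeq table of GRCm38.p6, used for names. Probe coordinates are those of the array design, on mm7. limma 3.58.1 in R 4.3.3 fitted 4 group means to the 12 arrays, with 8 residual degrees of freedom, and p-values were Benjamini-Hochberg adjusted over 19340 genes of a comparison. Tested on simulated arrays of the same 19340 genes for the male dexamethasone comparison, the fit recovered 55% of 100 genes changed by 1 log2 unit and 84% of 100 changed by 2, with 10 false calls. No other gene was changed there, and the noise was independent, without slide effects. In the real comparison 22.5% of all genes were called, so that these rates describe the simulation and do not carry over to these arrays.

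The 10 members, the gene lists and the tests were chosen with earlier results of these data known, and no list was tested as a set. Named genes were all members with every probe, from each list up to 3 genes with the smallest adjusted p among those past 0.05 in a comparison, and Ctnnb1, Tcf7l2, Wnt2, Wnt9b, Rspo3, Rnf43, Znrf3, Ahr, Gls2, Slc38a3 and Cyp2f2 whatever their result. A gene that this rule names is not reported here. Apcdd1, Nkd1, Nkd2, Sp5, Wls, Fzd1, Asl, Arg1 and Apoa1 were named after their values were seen. The alternatives were other background corrections, scaling by the median, quantile normalization, other filters, the mean of a gene's probes, slide or replicate number as a block, and leaving out each animal. The cap on the local background was added after seeing the data.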

Additional observations from a re-analysis of the deposited data

How the results depend on the processing

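Over 11 alternative settings the 10 genes gave 550 values in the 5 comparisons, of which 509 kept their direction and side of the threshold, 17 lost a call, 6 gained one and 18 changed sign, none of those 18 a called value. Signal over background limits what can be said of Lgr5, Axin2, Tcf7, Wnt4, Wnt9a, Slc1a3, Dkk4 and Rspo3, whose fold changes depend on how background is treated, and 3 animals a group limit every comparison. The 2 members called in males were 1 with median scaling, no filter on dim probes, slide as a block and replicate number as a block, and 0 with normexp, and with quantile normalization they were 2 with Lect2 in place of Glul. The 2 called in females were 1 with capped normexp, no background subtraction, quantile normalization, median scaling, no filter, and either block, and 0 with normexp. The 1 called between the sexes with dexamethasone was 0 with slide as a block. The 0 called between the sexes under vehicle was 1 (Lect2) with normexp, capped normexp, no background subtraction, quantile normalization and median scaling. With 1 animal left out, the members called were 1 to 4 in males, 1 to 3 in females, 0 to 1 between the sexes under either treatment, and 0 to 0 for the difference of the effects. The cause of these changes was not tested.

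Replicate numbers were not used to pair the animals in the main fit. The deviations of same-numbered animals from their group means correlated at −0.22 to 0.33. The highest values, 0.33 and 0.23, were from arrays on the same slide, so that slide and number are mixed there. Pairing itself was not tested. With replicate number as a block 3565 genes passed in males, against 4359 without it, and 1984 in females, against 2644. Of the members, Glul lost both calls under this replicate block (adjusted p = 0.0605 in males and 0.0633 in females), and Lgr5 in both sexes and Lect2 between the sexes with dexamethasone kept theirs.

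The signs that changed were as follows, and apart from Wnt4, Slc1a3 and Rspo3 the values were not called. With normexp, the dexamethasone values in females were 0.36 for Axin2, −0.27 for Gls2, −0.05 for Ahr, −0.12 for Cyp2f2 and −0.13 for Wnt2. In males normexp gave 0.74 for Slc1a3, −0.15 for Gls2, 0.10 for Wnt4 and 0.40 for Wnt9b. The difference of the effects under normexp was −0.04 for Glul and −0.03 for Rhbg, and the sex difference −0.02 for Cyp2e1 under vehicle and −0.13 for Rspo3 with dexamethasone. Capped normexp gave differences of the effects of −0.02 for Glul and 0.00 for Cyp2e1, sex differences of −0.01 for Cyp2e1 under vehicle and −0.18 for Rspo3 with dexamethasone, and dexamethasone values of −0.07 for Gls2 in females and 0.02 for Slc1a3 and 0.06 for Wnt9b in males. Without background subtraction the difference of the effects was −0.03 for Glul, the sex differences −0.02 for Cyp2e1 under vehicle and −0.16 for Rspo3 with dexamethasone, and the dexamethasone values −0.07 for Gls2 in females and 0.05 for Wnt9b in males. Quantile normalization gave Cyp2e1 a difference of the effects of 0.04 and a sex difference with dexamethasone of 0.14. It gave −0.08 and −0.17 for Gls2 and −0.06 and −0.06 for Cyp2f2 in females and males, 0.00 for Wnt2 in females and 0.02 for Wnt9b in males. Median scaling gave differences of the effects of 0.00 for Glul and −0.02 for Cdh1, and 0.02 for Wnt9b in males. The mean of a gene's probes gave −0.07 for the difference of the Slc1a2 effects, −0.13 and −0.08 for the Glul sex difference under vehicle and dexamethasone, −0.01 for the Tbx3 sex difference with dexamethasone, and 0.06 for Tcf7l2 in females. With slide as a block the difference of the Cdh1 effects was −0.12, and in females Gls2 had −0.04 and Wnt2 −0.17.

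Leaving out 1 animal, the dexamethasone value in females ran from −0.45 to 0.16 for Axin2, −0.93 to 0.10 for Tbx3, −0.46 to 0.39 for Ahr, −0.04 to 0.07 for Gls2, −0.16 to 0.03 for Tcf7l2 and −0.32 to 0.19 for Wnt2. In males it ran from −0.10 to 0.44 for Ahr, −0.09 to 0.12 for Gls2 and −0.23 to 0.15 for Wnt9b. The difference of the effects ran from −0.27 to 0.17 for Cdh1, −0.12 to 0.04 for Cyp2e1, −0.02 to 0.11 for Glul, −0.11 to 0.33 for Lect2, −0.07 to 0.25 for Rhbg and −0.13 to 0.29 for Slc1a2. The sex difference under vehicle ran from −0.19 to 0.27 for Axin2, −0.18 to 0.05 for Cdh1, −0.06 to 0.10 for Cyp2e1, −0.35 to 0.00 for Lgr5, −0.02 to 0.40 for Slc1a2 and −0.37 to 0.10 for Tbx3. With dexamethasone it ran from −0.37 to 0.07 for Cdh1, −0.17 to 0.14 for Cyp1a2 and −0.08 to 0.04 for Cyp2e1.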
